A study of Mus musculus with 12 samples.

Results

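The 78 genes for proteins of the mitochondrial ribosome were followed in B16F10 cells with and without the tRNA-modifying enzyme OSGEP. They were the protein-coding genes of both count tables whose symbol began with Mrpl or Mrps and a digit, after Ensembl gene IDs had been named from a GRCm38 annotation (GENCODE M21). Of the 55487 genes in each table, 49 carried large-subunit (Mrpl) and 29 small-subunit (Mrps) symbols. A further 5 genes with such symbols were annotated as pseudogenes and were left out. B16F10 is a mouse melanoma line derived from C57BL/6 mice. The shCtr cells carried a control short hairpin RNA and are labelled WT, and the shOSGEP cells carried hairpin OSGEP#2 and are labelled KD OSGEP. Both were made with lentivirus and selected with puromycin, and the study's methods state 3 independent transductions. A single hairpin was analysed here, so an effect of that hairpin and an effect of losing OSGEP cannot be told apart. Each genotype had 3 libraries of ribosome-protected fragments (RPF, the footprints that ribosomes leave on messenger RNA) and 3 of total RNA, which the labels list as polyA RNA, and for the footprints cells of both genotypes received cycloheximide before lysis.

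Mitochondrial ribosomes translate the few messengers of the mitochondrial genome, which encode core subunits of the respiratory chain. Their RNAs are transcribed inside mitochondria, whereas every protein of both subunits is encoded in the nucleus, translated on cytosolic ribosomes and imported. OSGEP is the catalytic subunit of the complex that makes N6-threonylcarbamoyladenosine (t6A) on cytosolic tRNAs that read codons beginning with A (ANN codons), and OSGEPL1 does so on mitochondrial tRNAs. The comparison asked whether messenger levels, footprints or the ratio of footprints to messengers of these genes differed between shOSGEP and shCtr cells.

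Total counts per library were 46.7 to 81.1 M in total RNA and 12.9 to 40.3 M in RPF, of which 4.42 to 17.0 M RPF counts fell on protein-coding genes. The shOSGEP replicate 1 RPF library held the fewest protein-coding counts, and 67.6% of its counts were ribosomal RNA, against 26.5 to 44.3% in the other RPF libraries. Osgep messenger was lower in shOSGEP in all 3 replicate pairs, by log2 changes of -4.48, -1.18 and -1.17, with an edgeR unadjusted p of 0.0694 and an adjusted p of 0.975. Among 10 t6A synthesis genes, Osgep included, the lowest footprint changes were -1.36, -0.92 and -0.98 in pairs 1, 2 and 3. These are limits for the set, and the lowest value of a pair need not be that of Osgep. The footprint change of Osgep in pair 1 was thus smaller in size than its RNA change. All 8 melanocyte-lineage markers were at 1 CPM (counts scaled to a common library size) or more in all 6 total RNA libraries, with sums between 2661 and 16879 CPM. None of the 8 blood, epithelial and endothelial markers and 2 of 3 fibroblast markers reached that level in every library. Pmel, a melanosome structural protein, had log2 changes in RNA of -3.83, -0.54 and 0.24 in pairs 1, 2 and 3. Of the 3 fibroblast markers, Col1a1 had a log2 change of 3.07 in RNA (edgeR unadjusted p = 0.0277), Pdgfrb 0.85 and Col1a2 0.10, and in pair 1 Col1a1 was higher by 3.73 while Col1a2 had -1.42. In footprints the fitted values were 2.67, 0.95 and 0.20, and the part of these markers in the results was not tested. In bulk libraries such as these, fewer cells of a type and less RNA per cell cannot be told apart.

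All 78 genes passed the filter on low counts in both assays. They were read at moderate levels: the median in shCtr cells was 24.9 CPM per kb of transcript in total RNA and 15.96 CPM per kb of coding sequence in footprints, against 11.7 and 8.97 over 11267 protein-coding genes. The footprint median lay at the 67.0th percentile of those genes and the RNA median at the 73.0th. Cytosolic ribosomal protein genes, of which 80 passed the filter, stood far higher at 583 CPM per kb in RNA and 337 CPM per kb in footprints. Mrpl51 had the most footprints per length, with 147 ± 8.17 CPM per kb (SD, n = 3), followed by Mrpl33 at 68.7 ± 10.0 and Mrps25 at 64.3 ± 6.29. The values of Mrpl33 and Mrps25 differed by less than the SD of either. Mrpl23 had the fewest at 2.86 ± 0.84 CPM per kb, below Mrps31 at 6.28 ± 1.81 and Mrpl1 at 7.25 ± 2.80, which did not differ beyond their spread. Much of the coding sequence of Mrpl51 and of Mrpl23 also occurs elsewhere in the genome, as given below, so their levels are uncertain. Mrpl12, homologue of the bacterial stalk protein L7/L12 that is present in several copies per ribosome, had the highest RNA level of the family with 123 CPM per kb and a footprint level of 62.7 ± 1.81 CPM per kb. Part of the Mrpl12 coding sequence also occurs elsewhere in the genome, as given below.

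The control ratio of footprints to RNA, both per length, was set so that 0 was the median of all 11267 protein-coding genes on the log2 scale. Its median was 0.05 over large-subunit and -0.19 over small-subunit genes, and 41 of 78 genes lay below 0. Mrps25 (3.19 ± 0.35), Mrps14 (2.93 ± 0.55) and Mrpl17 (2.72 ± 0.30) had the highest ratios. Mrpl23 (-2.76 ± 0.52), Mrpl54 (-1.80 ± 0.14) and Mrpl22 (-1.53 ± 0.35) had the lowest. Since RNA was divided by annotated transcript length, that length enters the ratio. The Spearman rho between them was 0.77 across the 78 genes, which share libraries and annotation, and 0.45 for the plain ratio of CPM. Mrpl17, with an annotated transcript of 7300 bases around a coding sequence of 531, ranked 3 by the ratio per length and 35 of 78 by the plain ratio of CPM, whereas Mrps14 ranked 2 and 1. Mrpl23 was last by both measures, although a copy elsewhere in the genome leaves its footprint level uncertain. Mrps25, a small-subunit gene whose exons share 69.8% of their bases with Nr2c2 on the opposite strand, could not be separated from that gene if reads were counted without strand, which the sources used here do not state.

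**Figure D1:**
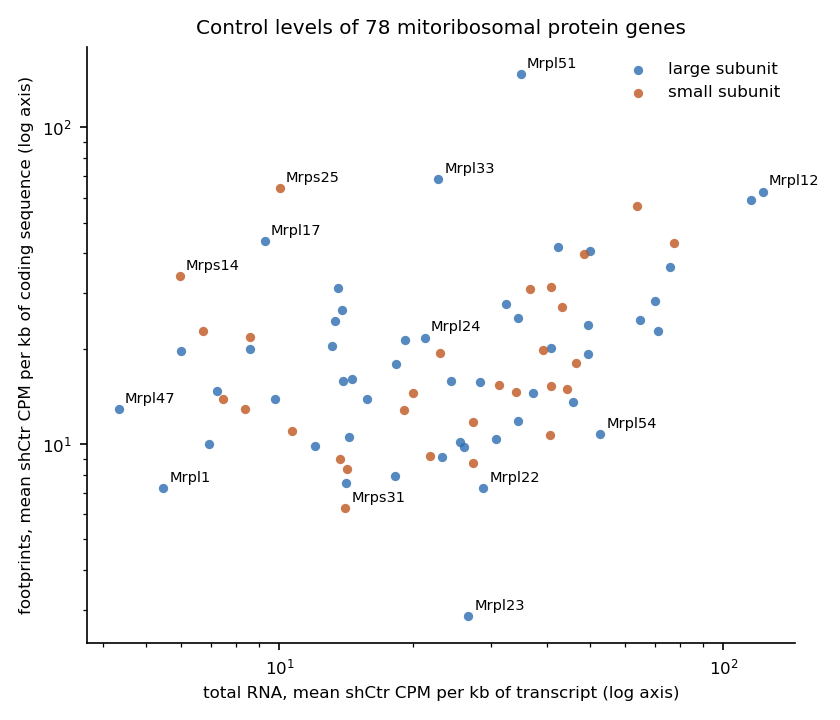
Mean level of each of the 78 genes in 3 shCtr libraries, as total RNA CPM per kb of transcript (x axis, log) and footprint CPM per kb of coding sequence (y axis, log), with large-subunit genes in blue and small-subunit genes in orange. Mrpl51 stood highest in footprints at 147 CPM per kb, and Mrpl23 lowest at 2.86. Both levels are uncertain, since much of these coding sequences also occurs elsewhere in the genome.

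Many of these genes have copies elsewhere in the genome, and footprints are short enough to match both. Each coding sequence was therefore divided into overlapping windows of 28 bases, which were searched on both strands of the 22 chromosome sequences of GRCm38, the mitochondrial one included. For 39 of 78 genes no window occurred outside the gene. For 25 genes over 10% of windows did, and for 12 genes over 50% did. Mrps36 had 100% of its windows elsewhere, Mrps33 90.5% and Mrpl23 80.7%. The other genes over 50% were Mrpl27, Mrpl51, Mrpl41, Mrpl48, Mrpl42, Mrps10, Mrps5, Mrps16 and Mrpl22. How reads with several matches were counted in these tables was not stated, so the levels of these 12 genes are uncertain. The control ratio had a median of -0.50 over the 12 genes and -0.09 over the 53 genes at 10% or less, with a rho of 0.05 between the ratio and the share of windows elsewhere. Of the 5 pseudogenes with Mrpl or Mrps symbols, the 2 with the most footprint counts are shown against their parent genes (counts of copies under other names were not compared), with the member first and capitals at the positions where member and copy differ.
Mrps36 coding sequence, chr13:100739185-100744538, minus strand: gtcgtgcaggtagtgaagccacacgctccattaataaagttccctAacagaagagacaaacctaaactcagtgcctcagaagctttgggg
Mrps36-ps1, chr17:53866901-53866990, minus strand: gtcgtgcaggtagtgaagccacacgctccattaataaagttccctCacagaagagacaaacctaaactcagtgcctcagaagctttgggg
Mrpl23 coding sequence, chr7:142533975-142535060, plus strand: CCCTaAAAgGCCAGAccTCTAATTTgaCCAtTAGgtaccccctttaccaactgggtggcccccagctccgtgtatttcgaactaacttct
Mrpl23-ps1, chr2:74591820-74591909, minus strand: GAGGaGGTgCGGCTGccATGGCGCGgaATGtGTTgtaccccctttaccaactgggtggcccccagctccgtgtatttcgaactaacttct
The stretches hold 90 bases each (GRCm38), and those of the members span an intron in the genome. Mrps36 and its copy were identical at 304 of 306 compared bases. Mrpl23 and its copy shared an unbroken identical run of 424 bases, and all 27 differences lay at the start of the compared stretch, as shown. The comparison allowed no gaps and used the longest annotated coding sequence. Whether the differing starts come from the same exon was not tested, so these 27 positions cannot be read as base changes. The pseudogene Mrpl23-ps1 took 694 RPF counts against 100 total RNA counts over 6 libraries each, although the RPF libraries were shallower. Mrps36-ps1 took 216 RPF counts and 5 RNA counts. Mrpl23 itself had as few as 5 RPF counts in a library.

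**Figure D2:**
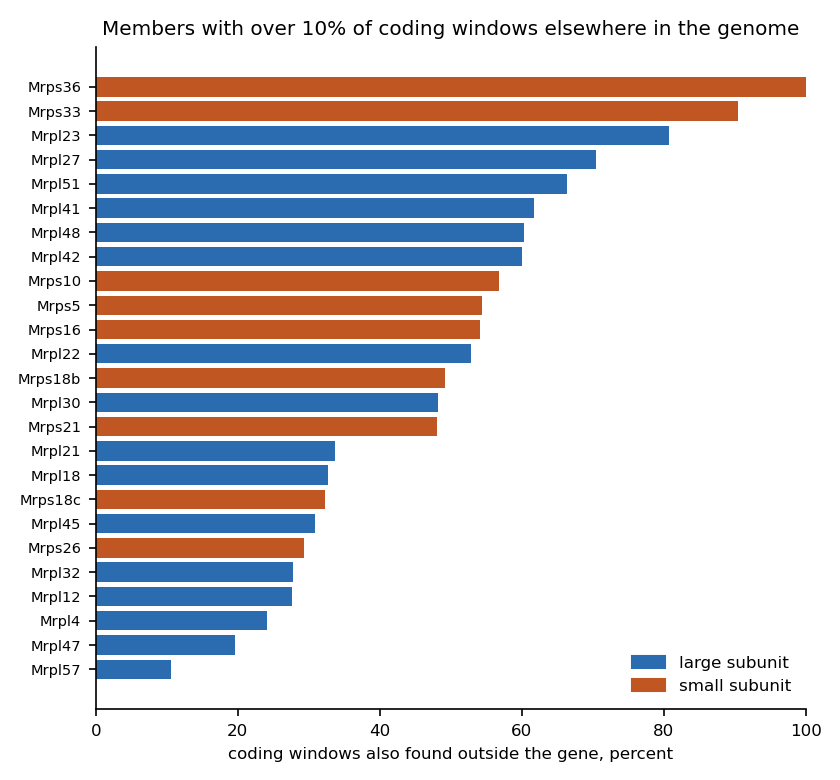
Share of 28-base coding windows that also occurred outside the gene (x axis, percent), for the 25 genes with over 10%, large-subunit genes in blue and small-subunit genes in orange. Mrps36 reached 100%, and 12 genes lay above 50%.

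Summed over each subunit, the share of protein-coding counts differed little between genotypes. All 78 genes together took 0.312, 0.341 and 0.330% of protein-coding RNA counts in shCtr replicates 1, 2 and 3, and 0.307, 0.358 and 0.333% in shOSGEP. In footprints they took 0.287, 0.293 and 0.255% in shCtr and 0.344, 0.280 and 0.256% in shOSGEP. The ranges of the genotypes overlapped in both assays, and the one library above the others was shOSGEP replicate 1 RPF. Large-subunit counts were 1.92 to 2.06 times small-subunit counts in total RNA and 1.73 to 1.97 times in footprints. The mean ratio in footprints was 1.87 ± 0.09 (SD, n = 3) in shCtr and 1.82 ± 0.08 in shOSGEP, a difference smaller than the SD of either group. In total RNA it was 1.98 ± 0.07 and 2.02 ± 0.01. Large and small subunit thus stood in nearly the same proportion in all 12 libraries.

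**Figure D3:**
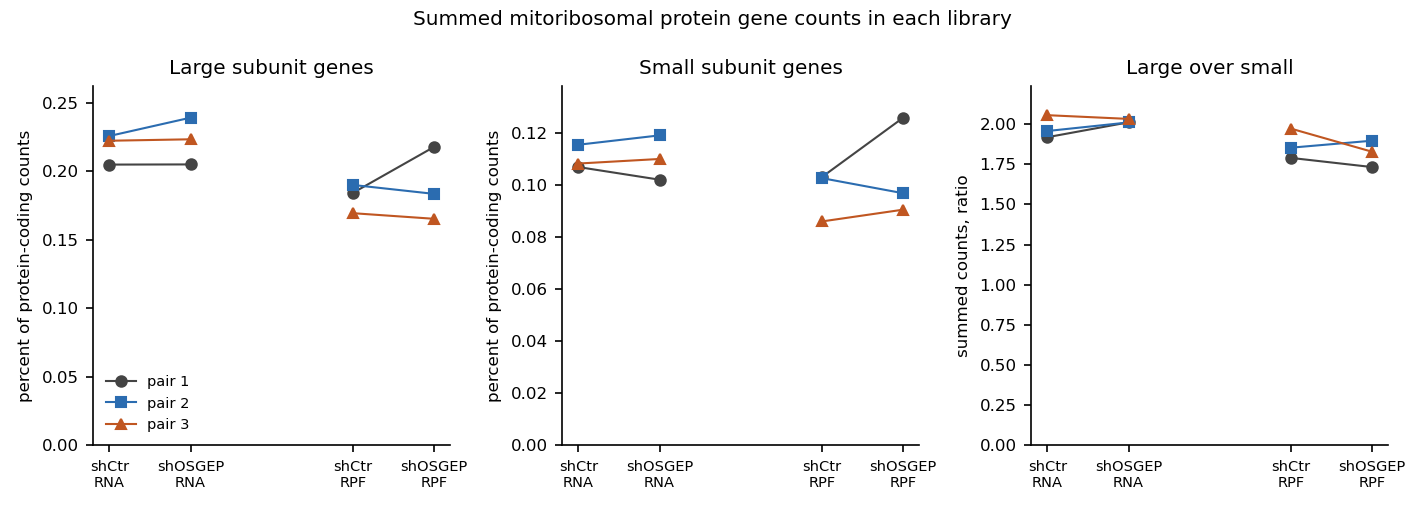
Counts summed over large-subunit genes and over small-subunit genes as percent of protein-coding counts (left and middle), and large over small (right), in each of the 12 libraries, with lines joining the shCtr and shOSGEP library of 1 replicate number. The ratio lay between 1.73 and 2.06, and the highest shares in footprints were those of shOSGEP replicate 1.

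No mitoribosomal protein gene passed the test in total RNA. By edgeR's quasi-likelihood test with Benjamini-Hochberg adjustment over 14516 genes, 0 of 78 genes had an adjusted p under 0.05, as had 0 of all genes tested (0%). At an unadjusted p under 0.05 the counts were 0 of 78 and 259 of 14516 (1.78%). DESeq2 and limma voom also called 0 members, adjusted or unadjusted. The median log2 change was 0.02 over large-subunit genes and -0.01 over small-subunit genes, beside 0.02 over all genes, and single changes ran from -0.43 (Mrps27) to 0.48 (Mrpl57). The median standard error of a member's log2 change was 0.18. Members higher in shOSGEP in all 3 pairs numbered 14 (17.9%, against 17.7% of all genes), namely Mrpl10, Mrpl17, Mrpl2, Mrpl24, Mrpl32, Mrpl38, Mrpl46, Mrpl47, Mrpl52, Mrpl57, Mrps12, Mrps14, Mrps16 and Mrps24. Another 10 were lower in all 3 pairs (12.8%, against 16.2%), namely Mrpl12, Mrpl14, Mrpl3, Mrpl34, Mrps11, Mrps2, Mrps21, Mrps23, Mrps26 and Mrps27. The values of the groups did not overlap for Mrpl10, Mrpl46 and Mrpl57 (3.85%, against 7.08% of all genes). These shares lay near or below those of all genes.

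Mrpl57 had the smallest p in total RNA. It stood at 22.6, 20.8 and 19.1 CPM in shCtr replicates 1, 2 and 3 and at 39.5, 24.5 and 23.2 CPM in shOSGEP. Every shOSGEP library was thus above every shCtr library, with replicate 1 far above the rest. The fitted log2 change was 0.48 (SE 0.24, edgeR unadjusted p = 0.0854, adjusted p = 0.975), and it was 0.18 without shOSGEP replicate 1. With the replicate number as a block, Mrpl57 was the 1 member at an unadjusted p under 0.05 (edgeR unadjusted p = 0.0489). Mrps16, homologue of bacterial S16, stood at 20.9, 17.5 and 19.2 CPM in shCtr and 37.9, 18.4 and 23.2 CPM in shOSGEP, again with shOSGEP replicate 1 highest, but these groups overlapped. Its log2 change was 0.46 in total RNA and 0.67 in footprints, and without shOSGEP replicate 1 the values were 0.10 and -0.02. The footprint difference of Mrps16 thus lay in 1 library, and 54.1% of its coding windows occurred elsewhere. Mrpl10, which anchors the stalk, stood at 47.6 to 49.3 CPM in shCtr and at 51.1 to 65.3 CPM in shOSGEP, with no overlap and a log2 change of 0.22 (edgeR unadjusted p = 0.190). Mrps27, a small-subunit protein of the pentatricopeptide repeat family, had the lowest log2 change, -0.43 (SE 0.46). It stood at 22.7, 30.0 and 26.1 CPM in shCtr and at 7.17, 28.3 and 23.1 CPM in shOSGEP, so replicate 1 of shOSGEP was far below the other 5 libraries.

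In footprints too, no member passed the adjusted test. By edgeR's quasi-likelihood test over 13529 genes, 0 of 78 members and 0 of all genes (0%) had an adjusted p under 0.05. At an unadjusted p under 0.05 there was 1 member, Mrpl24, and 139 genes in all (1.03%). DESeq2 likewise gave Mrpl24 alone at an unadjusted p under 0.05 and limma voom 0 members. Median log2 changes were -0.00 over large-subunit and 0.01 over small-subunit genes, beside 0.05 over all genes, with a range from -0.61 (Mrpl34) to 0.80 (Mrpl24) and a median standard error of 0.34. Footprints of 7 members were higher in all 3 pairs (8.97%, against 15.6% of all genes), namely Mrpl15, Mrpl24, Mrpl38, Mrpl52, Mrpl55, Mrps10 and Mrps16. Footprints of 15 were lower in all 3 (19.2%, against 15.2%), namely Mrpl1, Mrpl12, Mrpl18, Mrpl34, Mrpl35, Mrpl40, Mrpl42, Mrpl43, Mrpl47, Mrpl49, Mrpl51, Mrpl58, Mrps25, Mrps27 and Mrps30. Groups did not overlap for Mrpl12, Mrpl24, Mrps10 and Mrps25 (5.13%, against 5.07%).

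Mrpl24 (chr3:87919506-87923672, plus strand), homologue of bacterial L24 at the rim of the exit tunnel, had footprints of 14.1, 14.0 and 14.2 CPM in shCtr replicates 1, 2 and 3. In shOSGEP it had 34.2, 16.8 and 22.6 CPM. The shCtr values were almost equal and every shOSGEP value lay above them. The log2 change in footprints was 0.80 (SE 0.31, edgeR unadjusted p = 0.0359, adjusted p = 0.9998) and 0.47 without shOSGEP replicate 1 (unadjusted p = 0.0806). Its messenger stood at 24.0, 24.4 and 29.7 CPM in shCtr and 36.1, 27.8 and 32.8 CPM in shOSGEP, a log2 change of 0.31 (SE 0.17, edgeR unadjusted p = 0.113). No coding window of Mrpl24 occurred elsewhere in the genome, while its exons share 26.3% of their bases with Rrnad1 on the opposite strand. Mrpl52, a protein of the large subunit, had footprints of 10.3, 12.1 and 8.67 CPM in shCtr and 22.2, 14.5 and 11.97 CPM in shOSGEP, and these groups overlapped. Its log2 change in footprints was 0.65 (SE 0.31, edgeR unadjusted p = 0.0754), or 0.35 without shOSGEP replicate 1. Mrps10, homologue of bacterial S10, had 8.79 to 9.82 CPM in shCtr and 10.3 to 15.3 CPM in shOSGEP, with a log2 change of 0.42 (SE 0.26, edgeR unadjusted p = 0.145). In its case shOSGEP replicate 3 was highest, the change was 0.24 without that library, and 56.8% of its coding windows occurred elsewhere. In the paired fit with the replicate block, Mrpl24 (edgeR unadjusted p = 0.0275) and Mrpl52 (unadjusted p = 0.0448) were the 2 members at an unadjusted p under 0.05.

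On the lower side, Mrpl12 footprints stood at 36.9, 39.1 and 38.0 CPM in shCtr and 29.4, 35.2 and 30.9 CPM in shOSGEP, a log2 change of -0.26 (SE 0.22, edgeR unadjusted p = 0.285). Its groups did not overlap in footprints but did in RNA, where shOSGEP replicate 1 was at 86.8 CPM and the other libraries between 140 and 187. Of the Mrpl12 coding windows 27.6% occurred elsewhere in the genome. Its exons share 13.1% of their bases with Gm16755 on the opposite strand. Mrpl34, homologue of bacterial L34 and among the shortest members with a coding sequence of 279 bases, had 8.85, 3.03 and 4.25 CPM in shCtr and 5.202, 2.38 and 3.01 CPM in shOSGEP. The difference within each pair was smaller than the range of the shCtr libraries, and the fitted change was -0.61 (SE 0.52, edgeR unadjusted p = 0.275). Mrpl51, the member with the most footprints, had a log2 change of -0.18 (SE 0.24) and Mrpl33 one of 0.05 (SE 0.28). Mrpl23 had a change of 0.22 with an SE of 0.76 and per-pair values from -1.72 to 0.82, too wide to read. The plot of members by library shows these patterns for the genes of smallest p.

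**Figure D4:**
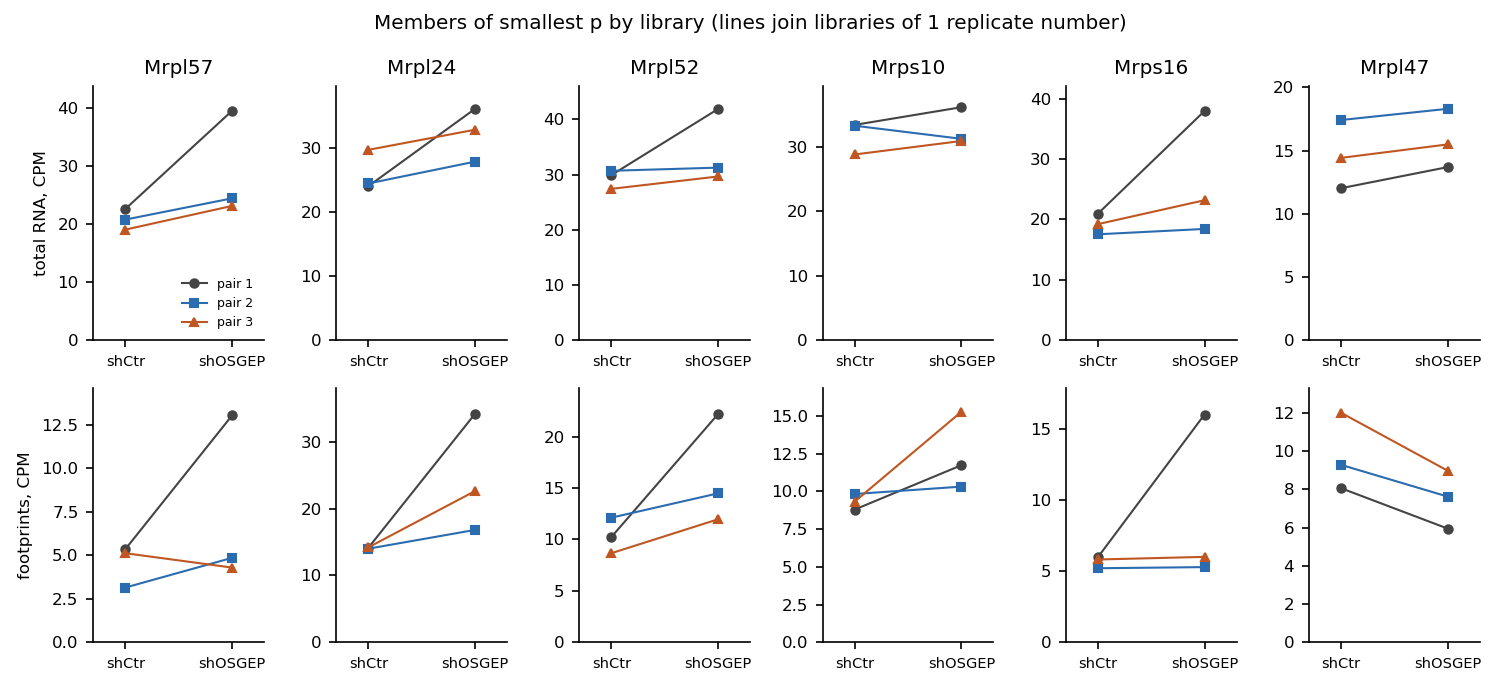
CPM of Mrpl57, Mrpl24, Mrpl52, Mrps10, Mrps16 and Mrpl47 in total RNA (top) and footprints (bottom), shCtr on the left and shOSGEP on the right of each panel, with a line for each replicate pair. In pair 1 Mrps16 footprints went from 5.97 to 16.02 CPM and in the other pairs stayed between 5.21 and 6.01, while Mrpl47 footprints were lower in shOSGEP in each pair.

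The ratio of footprints to RNA, tested as the assay by genotype interaction in edgeR over 12560 genes, gave 0 of 78 members and 0 of all genes (0%) at an adjusted p under 0.05. At an unadjusted p under 0.05 it gave 0 members by edgeR, DESeq2 and limma voom, and 17 genes in all by edgeR (0.135%). The median change of the ratio was -0.02 over large-subunit and 0.05 over small-subunit genes, beside -0.00 over all genes, and the median standard error was 0.39. The ratio was higher in all 3 pairs for 7 members (8.97%, against 11.6% of all genes), namely Mrpl21, Mrpl24, Mrpl38, Mrpl50, Mrpl52, Mrps10 and Mrps18a. It was lower in all 3 for Mrpl1, Mrpl35, Mrpl47 and Mrps27 (5.13%, against 11.2%). Groups did not overlap for Mrpl24, Mrpl52 and Mrps10 (3.85%, against 4.34%).

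Mrpl47, homologue of bacterial L29 and a neighbour of L24 at the exit tunnel, had the largest change of the ratio in size. Its messenger stood at 12.03, 17.4 and 14.4 CPM in shCtr and at 13.7, 18.3 and 15.5 CPM in shOSGEP, slightly higher in each pair. Its footprints stood at 8.06, 9.28 and 11.998 CPM in shCtr and at 5.95, 7.62 and 8.97 CPM in shOSGEP, lower in each pair. The groups overlapped in both assays, and the differences appeared only within pairs. Of the Mrpl47 coding windows 19.5% occurred elsewhere in the genome. Its exons share 13.9% of their bases with Ndufb5 and 10.2% with Actl6a on the opposite strand. The change of the ratio was -0.50 (SE 0.34, edgeR unadjusted p = 0.169, adjusted p = 0.99999), with per-pair values of -0.62, -0.35 and -0.52. With the replicate number as a block the edgeR unadjusted p was 0.0385, with a block by cell sample the unadjusted p was 0.0816, and no member had an adjusted p under 0.05 in either paired fit. Mrpl24 and Mrps10 had changes of the ratio of 0.48 (SE 0.35, edgeR unadjusted p = 0.198) and 0.37 (SE 0.27, unadjusted p = 0.195) in the fit without the block. Without shOSGEP replicate 3 the value of Mrps10 was 0.16.

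By replicate pair, most members shared a direction in the ratio, and that direction differed between pairs. In total RNA the medians of pairs 1, 2 and 3 were -0.09, 0.07 and 0.02 for large-subunit genes and -0.19, 0.05 and 0.03 for small-subunit genes. In footprints they were 0.20, -0.09 and -0.15 for the large and 0.23, -0.20 and -0.04 for the small subunit. The ratio was higher in shOSGEP for 67 of 78 members in pair 1, for 17 in pair 2 and for 27 in pair 3, with medians of 0.31, -0.18 and -0.16. Pair 1 thus differed in sign from the other pairs in both subunits. Cytosolic ribosomal protein genes followed the same order, with medians of the ratio of 0.32, -0.18 and -0.26. Over 4947 other protein-coding genes within the members' range of coding length the medians were 0.07, -0.04 and -0.09, and over all 12560 genes 0.01, -0.01 and -0.02.

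By library, the median ratio of the 78 members relative to all genes was 0.10, -0.01 and -0.37 in shCtr replicates 1, 2 and 3 and 0.38, -0.27 and -0.49 in shOSGEP. The range over replicates of a genotype, in either genotype, was wider than the difference within any pair. The shOSGEP replicate 1 RPF library, which had the highest value, also had the largest share of ribosomal RNA (67.6%) and the fewest protein-coding counts (4.42 M), and its Osgep messenger was the lowest relative to its control. The part of these differences in the result was not tested. The log2 changes of RNA and footprints correlated across the 78 members with a Pearson r of 0.68, 0.33 and 0.31 in pairs 1, 2 and 3, and with r of 0.79, 0.41 and 0.36 across protein-coding genes. These are descriptions across genes of the same libraries. Per-pair changes of the ratio correlated across members with r of -0.41 between pairs 1 and 2, -0.26 between 1 and 3 and 0.30 between 2 and 3. Across 11267 protein-coding genes the values were -0.13, 0.06 and 0.04.

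**Figure D5:**
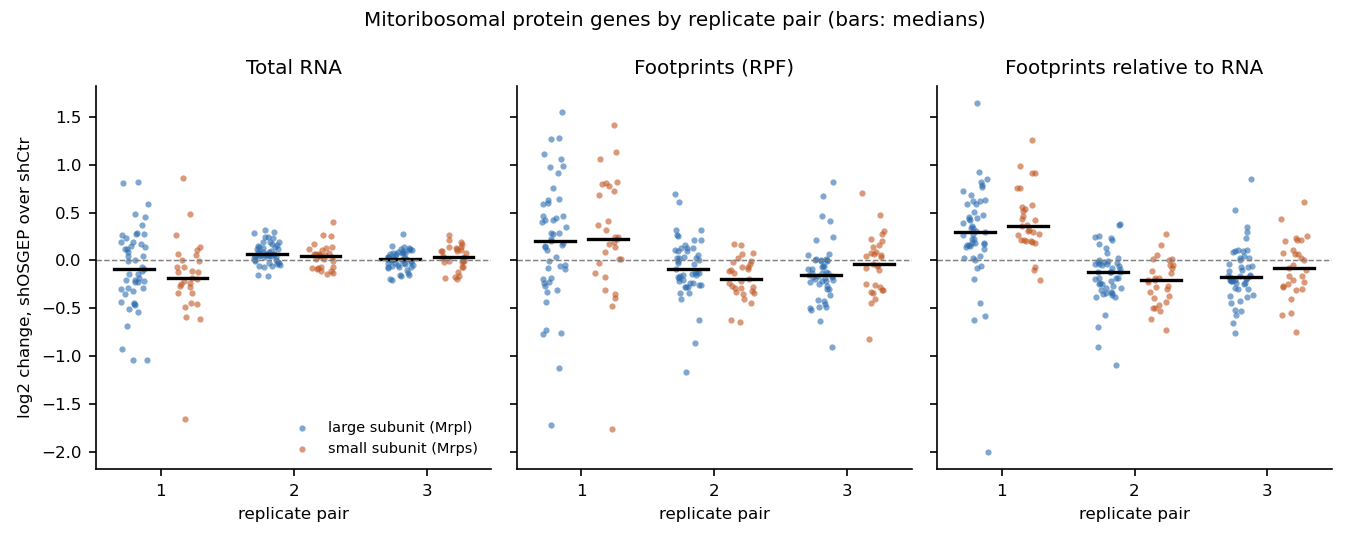
Log2 change of each of the 78 genes from shCtr to shOSGEP (y axis) in replicate pairs 1, 2 and 3 (x axis), for total RNA, footprints and their ratio, with large-subunit genes in blue, small-subunit genes in orange and medians as bars. In the ratio, medians were 0.30 and 0.35 in pair 1 and between -0.21 and -0.07 in the other pairs.

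ANN codons, those read by the tRNAs that carry t6A, made up a median of 27.7% of the codons of the 78 genes, against 26.96% over protein-coding genes and 33.7% over cytosolic ribosomal protein genes. The share ran from 18.7% in Mrpl38 to 37.4% in Mrpl33, taken from the longest annotated coding sequence of each gene. The first 150 bases of the coding sequence are given for these genes and for Mrpl24 and Mrpl47, with ANN codons in capitals.
Mrpl33, chr5:31614001-31650304, plus strand: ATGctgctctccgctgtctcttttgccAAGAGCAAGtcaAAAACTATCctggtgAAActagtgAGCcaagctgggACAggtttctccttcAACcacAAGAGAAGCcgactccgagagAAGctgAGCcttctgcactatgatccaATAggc
Mrpl38, chr11:116138539-116138777, minus strand: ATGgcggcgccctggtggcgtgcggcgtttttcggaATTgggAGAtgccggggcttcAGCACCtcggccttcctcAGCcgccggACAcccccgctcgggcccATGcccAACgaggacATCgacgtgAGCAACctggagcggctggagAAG
Mrpl24, chr3:87921866-87922015, plus strand: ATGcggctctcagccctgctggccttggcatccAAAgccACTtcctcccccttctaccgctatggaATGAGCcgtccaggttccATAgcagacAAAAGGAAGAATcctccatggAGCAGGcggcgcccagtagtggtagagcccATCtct
Mrpl47, chr3:32734208-32736739, minus strand: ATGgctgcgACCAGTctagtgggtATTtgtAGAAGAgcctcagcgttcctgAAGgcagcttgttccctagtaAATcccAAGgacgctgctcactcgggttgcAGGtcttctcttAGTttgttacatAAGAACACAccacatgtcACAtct
Of the 50 codons in each stretch (GRCm38, GENCODE M21), 17 began with A in Mrpl33, 13 in Mrpl38, 13 in Mrpl24 and 15 in Mrpl47. Over the whole coding sequences Mrpl24 had 27.3% and Mrpl47 32.5%. The gene with the highest ANN share, Mrpl33, had a change of the ratio of -0.04 (SE 0.30), and the gene with the lowest share, Mrpl38, had 0.04 (SE 0.26). Mrpl38, a mitochondria-specific protein of the large subunit, was among the steadiest members, with per-pair changes in footprints of 0.16, 0.11 and 0.21 and in RNA of 0.14, 0.09 and 0.12. Across members the Spearman rho between ANN share and the change of the ratio was -0.04, with 0.11, -0.22 and 0.07 in pairs 1, 2 and 3. Over 11267 protein-coding genes the values were -0.04 for the fitted change and 0.11, -0.20 and -0.08 by pair.

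The members are short, with a median coding length of 585 bases against 1431 over protein-coding genes, and ranged from 264 (Mrps21) to 1329 bases (Mrps30). Coding length and the fitted change of the ratio had a rho of -0.39 across members and -0.02 across protein-coding genes. By pair the members gave -0.28, -0.06 and 0.13, so the sign was not kept. The median SD of log2 RNA over the 6 libraries was 0.19 for members, 0.18 for cytosolic ribosomal protein genes and 0.28 over protein-coding genes. For footprints it was 0.39, 0.52 and 0.45. Members had higher RNA levels than protein-coding genes, and the part of level in these SDs was not tested.

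A list in the study of proteins found in aggregates of shOSGEP cells named 9 members, which were Mrpl2, Mrpl16, Mrpl27, Mrpl28, Mrpl47, Mrpl50, Mrps2, Mrps5 and Mrps15. It was made from proteins, not from these libraries. For messengers of proteins in shOSGEP aggregates the study reported more ribosome stalling than for those in control aggregates. For proteins found only in shOSGEP aggregates it reported higher ribosome occupancy of ANN codons. Counts per gene, as used here, do not show codon occupancy. The study's stalling value was closer to them, a log2 change of footprint reads averaged over the positions of a gene. It was set against genes of control aggregates, which were not compared here. The median log2 change of the 9 members was -0.00 in total RNA, -0.07 in footprints and -0.04 in the ratio, beside 0.00, 0.01 and 0.01 over the other 69 members. Among the 9, Mrps15, homologue of bacterial S15, and Mrpl47 marked the ends of the range of the ratio, at 0.36 (SE 0.39) and -0.50 (SE 0.34). Mrpl16 had per-pair changes of the ratio of 0.92, -0.90 and -0.15. Mrps5 had -0.11 (SE 0.34), with 54.3% of its windows elsewhere. The median ANN share was 29.7% in the 9 and 27.3% in the others.

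Symbols do not match the place in the ribosome for every member. Mrps30 and Mrps18a carry small-subunit symbols although their proteins sit in the large subunit, and Mrps36 is known as a component of the oxoglutarate dehydrogenase complex. Mrps30 had log2 changes of -0.09 (SE 0.24) in RNA and -0.20 (SE 0.48) in footprints, Mrps18a 0.01 (SE 0.14) and 0.28 (SE 0.25), and Mrps36 -0.03 (SE 0.15) and 0.16 (SE 0.77). Moving the first pair to the large subunit and leaving Mrps36 out kept all 6 subunit medians within their spread over replicate pairs.

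The lists of genes around the mitochondrial ribosome, 10 genes of t6A synthesis and 80 cytosolic ribosomal protein genes also gave no call at an adjusted p under 0.05 in any assay. At an unadjusted edgeR p under 0.05 there were 0 among 5 mitoribosomal proteins with other symbols, 27 assembly and rRNA modification factors, 16 translation factors and messenger-binding proteins, 8 genes of mitochondrial transcription and genome upkeep, 2 mitochondrial rRNAs, 10 t6A genes and the 80 cytosolic ribosomal protein genes, in RNA, footprints or ratio. Dap3, the GTP-binding protein of the small subunit, had log2 changes of -0.02 in RNA and 0.11 in footprints, and Ptcd3, another small-subunit protein, had -0.10 and -0.25. Tfb1m, which dimethylates the small mitochondrial rRNA, had the smallest p of the assembly factors, with 0.48 in RNA (edgeR unadjusted p = 0.0825) and 1.04 in footprints (unadjusted p = 0.0947). Ssbp1, which binds single-stranded mitochondrial DNA, had 0.52 in footprints (edgeR unadjusted p = 0.0810) and 0.41 in the ratio (unadjusted p = 0.140). Trp53rkb, a t6A gene, had 0.92 in the ratio (edgeR unadjusted p = 0.186). Median changes of the assembly factors were -0.02 in RNA, 0.02 in footprints and 0.06 in the ratio. The rRNAs mt-Rnr1 and mt-Rnr2 had changes of 0.05 (SE 0.48) and -0.02 (SE 0.51) in the total RNA libraries, which the labels list as polyA RNA. Osgepl1, the mitochondrial enzyme for t6A, had a log2 change of 0.02 in RNA and 0.11 in footprints.

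The members lie on 17 chromosomes, with 11 on chromosome 11, 8 on 17 and 7 on 6, and many face another gene. For 33 of 78 (42.3%) the start lay within 1000 bases of that of a protein-coding gene on the opposite strand, against 17.6% of the 11267 protein-coding genes that passed both filters. Mrpl46 and Mrps11, of opposite subunits, form such a pair, with starts 412 bases apart and the first bases of both genes overlapping, so that counting without strand could not separate reads there. Their log2 changes in RNA had different signs within pairs, as Mrpl46 was higher and Mrps11 lower in shOSGEP in all 3. RefSeq promoter windows (GRCm38.p6, 250 bases before to 50 after the start) were matched for 69 of 78 members by symbol, in 75 windows. The YY1 motif AAGATGGC, on either strand, was in 12 of 75 windows (16%) against 3.11% of 20139 windows of protein-coding genes. The ETS motif CCGGAAGT was in 12 (16%) against 5.35%, and the NRF1 core GCGCATGC in 8 (10.7%) against 3.65%. The GC box GGGGCGGGG was in 20% against 15.8%, TATAAA in 6.67% against 12.2% and the CGCG box TCTCGCGA in 1.33% against 1.44%. The motif background was not limited to genes that passed the filters, unlike that of the facing starts. Over all 21974 protein-coding genes the share of facing starts was 10.8%. A match says only that the letters are there. The NRF1 core overlaps its own reverse complement GCATGCGC, so runs of both can share letters. Mrpl32, homologue of bacterial L32, whose window held YY1 and NRF1 matches, had the same small difference in RNA in each pair, with log2 changes of 0.12, 0.12 and 0.13 (fitted 0.12, SE 0.15), while its footprints gave 0.75, -0.22 and -0.05. Of the Mrpl32 coding windows 27.7% occurred elsewhere in the genome.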

How the data were processed

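Ribosome-protected fragments and total RNA of B16F10 cells were measured in 12 libraries, 3 per genotype and assay, grouped by the labels. According to the study's methods, cells were treated with cycloheximide, lysates were digested with nuclease, active ribosomes were pulled down with a puromycin analogue, and fragments were size-selected, trimmed with Trim Galore and Cutadapt and aligned with STAR. The authors deposited raw counts per Ensembl gene. The notes name both GRCm38 and GRCm39, and the methods mention uniquely mapped, perfectly matching footprint reads on coding transcripts and, for a total RNA experiment, Salmon. Whether either step made these tables is not given in the sources used here, nor is the strand setting, and the footprint table holds ribosomal RNA, so it was not limited to coding transcripts. Here 55227 of 55487 IDs were named from GENCODE M21 (GRCm38), and coordinates are GRCm38. Coding lengths, transcript lengths, windows and ANN shares came from the transcript with the longest complete annotated coding sequence of each gene. Which transcripts the cells used was not tested.

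Counts were filtered (filterByExpr), scaled (TMM) and tested per assay with edgeR 4.0.16 (quasi-likelihood, Benjamini-Hochberg over all genes tested, threshold 0.05) in R 4.3.3. The change of the ratio was the assay by genotype interaction over the 12 libraries. DESeq2 1.42.0 and limma 3.58.1 were alternatives. Pair values used log2 CPM with a prior count of 2. The steps were run on simulated counts with known changes. The simulation held no replicate effect and no outlying library, so it does not show how the tests perform on these libraries. The study states 3 independent transductions but does not tie replicate numbers to them. Same-numbered libraries deviated together, with correlations of 0.52, 0.54 and 0.29 in RNA and 0.59, 0.51 and 0.66 in footprints, so the replicate number was also used as a block. No replicates agreed within counting noise. Total counts and protein-coding counts alone thus did not set the precision, which also depended on the differences between replicates. The members, gene lists and tests were chosen with earlier results of these data known, and named genes were the 4 of smallest unadjusted p per family, the 3 highest and 3 lowest by control footprint level and by control ratio, the 3 with the largest smallest per-pair change of 1 sign in RNA and in footprints, the study's aggregate list, Mrpl12, Mrps30, Mrps18a, Mrps36 and the ends of the ANN share. From the other lists these were the 2 of smallest unadjusted p per family and Osgep, Osgepl1, Dap3, Ptcd3 and the mitochondrial rRNAs. Other genes, such as Mrps27, Mrpl46, Mrps11 and Col1a1, were named after their values were seen. The share of 28-base windows elsewhere was chosen as a measure after the data were seen. Other alternatives were scaling, filters, gene space, leaving out libraries or pairs, subunit by structure and the study's thresholds.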

Additional observations from a re-analysis of the deposited data

Results flagged for a closer look

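Mrpl47 had a log2 change of 0.11 in total RNA and of -0.38 in footprints, with opposite directions in the assays in all 3 replicate pairs. The difference between the assays had an edgeR unadjusted p of 0.169 and an adjusted p of 0.99999. In the coding sequence of Mrpl47, 19.5% of windows occurred elsewhere, and its exons overlap genes on the opposite strand. Leaving out 1 library at a time moved the RNA value of Mrpl47 between -0.0082 (without shOSGEP replicate 2) and 0.26 (without shCtr replicate 2), and it was -0.0066 without shCtr replicate 1. Its footprint value moved between -0.53 (without shOSGEP replicate 3) and -0.20 (without shCtr replicate 3), and was -0.25 without shOSGEP replicate 1, and its ratio moved between -0.68 and -0.31 (without shCtr replicate 3). The pseudogene Mrpl23-ps1, which lies outside the members compared, took 694 RPF counts over 6 libraries, between 58 and 205 in each. Mrps36-ps1 took 216 RPF counts, and its counts ranged from 0 to 60 per library. How the counts of both copies divide between copy and parent gene was not tested.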

How the results depend on the processing

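No alternative gave a member at an adjusted p under 0.05, and the number at an unadjusted p under 0.05 ranged from 0 to 2 in total RNA, 0 to 2 in footprints and 0 to 1 in the ratio. The study's thresholds, an unadjusted p under 0.05 and an absolute log2 change over 0.5, called 1 member in footprints, Mrpl24. Of 112 subunit medians under alternatives, 110 moved by less than the spread between replicate pairs. Leaving out 1 library at a time, medians ranged from -0.0842 to 0.0750 (large) and -0.159 to 0.0699 (small) in total RNA, with the lowest of both without shOSGEP replicate 2, a move beyond that spread. In footprints they ranged from -0.18 to 0.16 and -0.13 to 0.18, and in the ratio from -0.25 to 0.16 and -0.22 to 0.19, so every subunit median took both signs. The cause was not tested. With the replicate block, medians for large and small subunit were 0.00 and -0.03 in RNA, -0.04 and -0.02 in footprints and -0.05 and 0.01 in the ratio. The block gave 1, 2 and 1 members at an unadjusted p under 0.05 and changed no adjusted call. Of 1598 values of named genes under alternatives, 223 had another sign than the value reported, and 96 values of genes outside the 4 of smallest p in that assay or ratio moved by at least 1 SD of the pair values. Leaving out 1 library, the footprint change of Mrpl57 ranged from -0.0026 to 0.96 and that of Mrpl10 from -0.12 to 0.22, and the ratio of Mrpl57 from -0.19 to 0.35 and that of Mrps16 from -0.12 to 0.34. The footprint change of Mrps16 ranged from -0.0170 without shOSGEP replicate 1 to 0.936 without shOSGEP replicate 2. Leaving out members with over 10% of windows elsewhere, chosen after seeing the data, moved none of the 6 medians beyond their spread. At a median standard error of 0.34 in footprints and 0.39 in the ratio, small differences of single members were not detectable. Larger ones could be missed too, since 0 of all genes passed the adjusted test in either assay or in the ratio. Osgep messenger, the target of the hairpin, did not pass it in total RNA. The absence of calls thus does not show that single members were unchanged.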
